A study of Mus musculus with 9 samples.

Results

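The conduction genes described here are Scn4b and Scn10a of the sodium channels, Hcn2 and Hcn4 of the pacemaker channels, and Gja1 and Gjc1 of the gap junctions. They were taken by gene symbol from a count matrix of mouse heart RNA, so they are 6 of its 22851 genes. All 6 were found under their own symbols and reached the tests of every comparison.

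The hearts came from male C57BL/6 mice, named as C57BL/6J in the study's methods, that were 6 to 8 weeks old when the experiment began, and the 3 groups hold 3 libraries each. CK mice received citrate buffer and are the controls. DCM mice received 1 injection of streptozotocin, a toxin of the insulin-secreting beta cells, and were killed 12 weeks later as a model of diabetic cardiomyopathy. SPM mice received the same streptozotocin together with spermine, a polyamine, at 1 mg/kg every day for 2 weeks beforehand and every other day over the 12 weeks, so no group had spermine without streptozotocin. The groups share their strain and sex, and no transgene or deletion is named for any of them. The methods do not settle if each library holds 1 heart or several pooled hearts, so p-values measure the spread between these libraries.

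Total counts on genes ran from 29901300 to 39718680 per library, and mitochondrial genes held between 13.7% and 16.2% of them in CK libraries, between 15.5% and 18.9% in DCM libraries and between 21.01% and 21.09% in SPM libraries. The extraction protocol of the labels speaks of retina, but the tissue label says heart. Ventricular myocyte markers such as Myl2 summed to at least 20315 FPKM (fragment counts scaled to the length of the gene and the library total) in every library, whereas 8 photoreceptor markers together stayed at or under 0.458 FPKM. SPM replicate 2 stood apart in another way: its counts were matched by a mixture of 45.2% of SPM replicate 1 with SPM replicate 3, with a residual of 0.900 times sampling noise, against 2.54 for the next best of 251 other combinations of libraries. For all 6 conduction genes its FPKM lay between those of the other SPM libraries, as held for 66.4% of all genes with a count in SPM. Fold changes and ratios of the 6 genes in SPM are therefore given with and without this library, and of the other genes named those that did not pass without it are given, in tests that then rest on 5 libraries. Fold changes also ran with the GC content of the transcripts, with a Spearman rho across genes of -0.502 for SPM compared to DCM, -0.366 for SPM compared to CK and 0.0602 for DCM compared to CK. Values from a fit with a GC offset, which removes such a trend from each library, stand beside the SPM fold changes of the 6 genes, and for the other genes named the passes and calls that it ended are given.

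The heartbeat starts in the sinoatrial node, where HCN channels open on hyperpolarization and carry the pacemaker current towards threshold. In working myocytes and the His-Purkinje system the upstroke is carried by voltage-gated sodium channels, whose pore subunits are joined by small beta subunits that set their gating and their place in the membrane. Gap junctions at the intercalated discs, built from connexins, then pass the current from cell to cell.

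Scn4b (ENSMUSG00000046480) encodes the beta-4 subunit and lies on chromosome 9 from 45138395 to 45154152, plus strand, in build GRCm38 with GENCODE M21. Scn10a (ENSMUSG00000034533) encodes Nav1.8, a pore subunit best known from sensory neurons, and spans 119608456 to 119719322 of the minus strand of chromosome 9. Hcn2 (ENSMUSG00000020331, chromosome 10, 79716634 to 79736108, plus strand) is the HCN isoform typical of ventricular muscle, and Hcn4 (ENSMUSG00000032338, chromosome 9, 58823412 to 58863175, plus strand) that of the sinoatrial node. Gja1 (ENSMUSG00000050953, chromosome 10, 56377330 to 56402513, plus strand) encodes connexin 43, the main connexin of working myocardium. Gjc1 (ENSMUSG00000034520, chromosome 11, 102799579 to 102819700, minus strand) encodes connexin 45, the connexin of nodal tissue and of the developing heart. All are protein-coding, and no other annotated gene overlaps any of them.

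Promoters of 3 genes are shown because Hcn2 and Hcn4 both lay lower in SPM than in CK, and Gja1 is the most abundant of the 6 genes. Each is the 250 bases before the start of the RefSeq gene in GRCm38.p6, read 5′ to 3′ on the gene's plus strand, at chr10:79716384-79716633 for Hcn2, chr9:58822699-58822948 for Hcn4 and chr10:56377050-56377299 for Gja1. Capitals mark the GC box (GGGCGG on either strand) in the HCN promoters and the AP-1 site (TGAGTCA on either strand) in that of Gja1.
Hcn2 promoter: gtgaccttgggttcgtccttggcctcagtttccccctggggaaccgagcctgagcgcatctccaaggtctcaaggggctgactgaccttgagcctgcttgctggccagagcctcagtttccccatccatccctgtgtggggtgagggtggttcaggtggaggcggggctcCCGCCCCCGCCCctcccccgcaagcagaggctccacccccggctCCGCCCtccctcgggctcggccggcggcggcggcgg
Hcn4 promoter: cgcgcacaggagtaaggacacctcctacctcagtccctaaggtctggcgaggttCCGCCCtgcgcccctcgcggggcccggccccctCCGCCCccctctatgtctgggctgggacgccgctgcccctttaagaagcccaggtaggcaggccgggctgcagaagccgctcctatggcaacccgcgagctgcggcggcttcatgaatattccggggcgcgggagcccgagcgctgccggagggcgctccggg
Gja1 promoter: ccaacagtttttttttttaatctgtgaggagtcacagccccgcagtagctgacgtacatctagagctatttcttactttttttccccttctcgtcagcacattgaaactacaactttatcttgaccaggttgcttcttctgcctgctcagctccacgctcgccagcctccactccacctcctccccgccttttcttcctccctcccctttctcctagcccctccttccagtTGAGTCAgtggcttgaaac
The HCN promoters held 3 and 2 GC boxes, for Hcn2 and Hcn4, and there was no match in those of Gja1, Scn4b and Scn10a, whereas 33.0% of 32536 mouse promoters of this length hold at least 1. Their GC content was 70.4% and 71.2%, against 50% for Gja1 and a median of 52.4% over all promoters. The AP-1 letters, which were searched for after the sequences had been seen, matched once in the Gja1 window and in none of the other 4, and 4.45% of all promoters hold them. No TATA box (TATAAA, 12.3% of promoters), T-box motif (GGTGTG, 16.3%) or NKX2-5 motif (AAGTG, 40.6%) was matched in any of the 5 windows on either strand. A CCAAT box (CCAAT, 33.8%) matched once in that of Scn4b, and a GATA site (AGATAA, 9.97%) once in that of Gja1. The CRE core (TGACG, 17.9%) matched 2 times in Gja1 and 3 times in Scn10a. Such matches describe letters and not bound sites. By the GENCODE coordinates given above, the Scn10a window (chr9:119719033-119719282) lies within the gene, and most of the Scn4b window (chr9:45138374-45138623) does too. For these 2 genes the letters are thus not those before the GENCODE start. The Hcn4 window ends at 58822948, while the GENCODE start is at 58823412, so it holds none of the 250 bases before that start. The Gja1 window ends at 56377299, a little before its GENCODE start at 56377330, and the Hcn2 window ends directly before its own. The high GC content was not limited to the promoters: 65.4% of the bases of the longest Hcn2 transcript are G or C, the 99.5th percentile of all genes, with 58.0% for Hcn4, 54.5% for Scn4b, 52.8% for Scn10a, 45.6% for Gjc1 and 42.2% for Gja1.

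In FPKM, which are per length, the genes fell in a different order in each group. In CK, Gja1 was the most abundant at 91.1 ± 3.40 FPKM (SD, n = 3 here and below), ahead of Hcn2 at 13.8 ± 1.04, Gjc1 at 9.33 ± 0.286, Scn4b at 8.05 ± 0.386, Hcn4 at 2.38 ± 0.167 and Scn10a at 0.443 ± 0.0530, and the libraries of neighbouring genes did not overlap. In DCM, Hcn2 at 8.50 ± 0.143 FPKM stood behind Scn4b at 11.4 ± 0.599 and Gjc1 at 9.44 ± 0.872, again without overlap between neighbours. In SPM, the libraries of Scn4b overlapped with those of its neighbours on either side, Gjc1 at 10.04 ± 0.127 FPKM and Hcn2 at 5.83 ± 0.679.

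**Figure D1:**
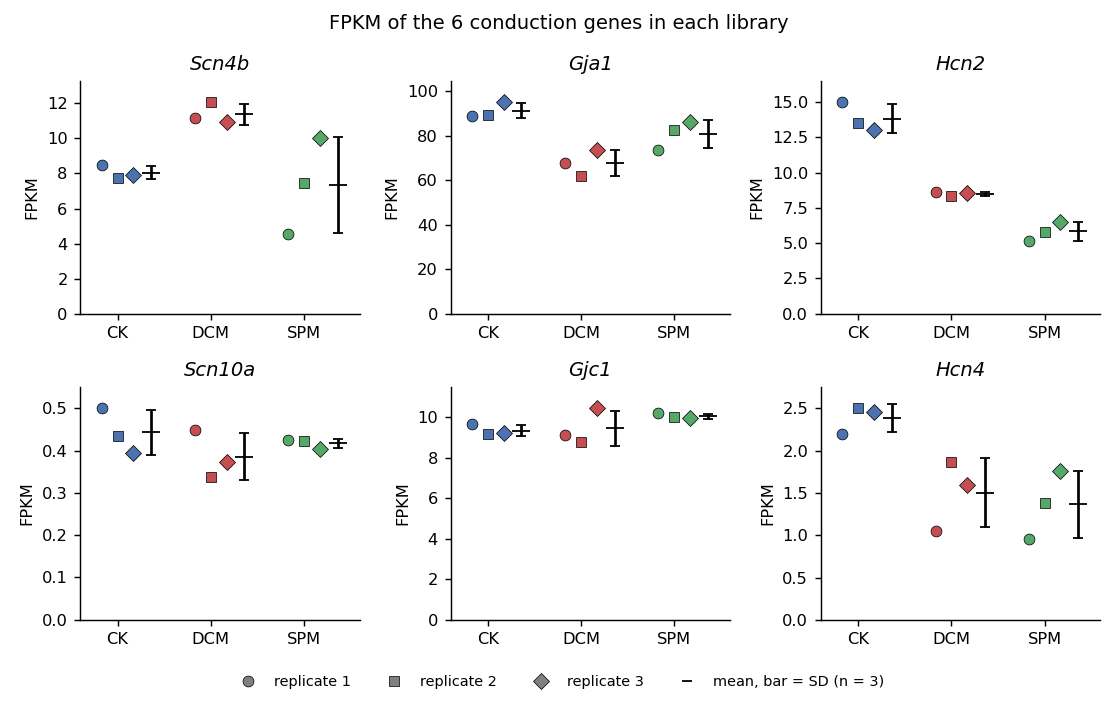
FPKM of each conduction gene in CK, DCM and SPM, with 1 point per library (shape by replicate number), the mean as a dash and the SD as a bar, every axis starting at 0. Hcn2 is lower in each DCM library than in any CK library and lower again in SPM, Scn4b is higher in DCM than in CK with SPM spread from 4.56 to 10.01, and Gjc1 and Scn10a stay close to level.

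A gene was called where edgeR's quasi-likelihood test gave a Benjamini-Hochberg adjusted p below 0.05 over all genes tested and the fold change reached 1.5. In DCM compared to CK, 2 of the 6 conduction genes were called, against 4.34% of all 14402 genes in that test. They were Scn4b, higher as were 2.03% of genes, and Hcn2, lower as were 2.31%. Between SPM and DCM none of the 6 was called by edgeR, against 3.59% of 14493 genes, and by DESeq2 none was called either. At an unadjusted p below 0.05 that comparison had 3 of them, Scn4b, Gja1 and Hcn2. The share of all genes at that limit was not counted, but it is no smaller than the 16.6% past the adjusted p. Hcn2 alone of the 6 passed the adjusted p, with a smaller fold. Between SPM and CK, 2 were called lower, Hcn2 and Hcn4, against 9.21% of 14574 genes called and 4.12% called lower. Without SPM replicate 2 only Hcn2 was, in a fit that called 432 genes higher and 339 lower of 14897.

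By the adjusted p alone, the conduction genes numbered 3 of 6 in DCM compared to CK (Scn4b higher, Hcn2 and Gja1 lower), where 10.4% of all genes passed, 5.28% higher and 5.11% lower. They numbered 1 in SPM compared to DCM (Hcn2 lower), where 16.6% passed, 8.87% higher and 7.76% lower. Between SPM and CK they numbered 3 (Gjc1 higher, Hcn2 and Hcn4 lower), where 27.4% passed, 13.0% higher and 14.3% lower. Overlap was also counted, on counts scaled by the library total and the TMM factor. Libraries of the 2 groups did not overlap for 4 of the 6 in DCM compared to CK, against 29.3% of all genes. This held for 3 in SPM compared to DCM, against 39.3%, and for 3 in SPM compared to CK, against 46.3%. On that scale Gja1 overlapped between SPM and CK, although in FPKM it did not. SPM compared to DCM and DCM compared to CK share the DCM libraries, and each other pair of comparisons shares a group likewise, so the comparisons are not independent of each other.

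**Figure D2:**
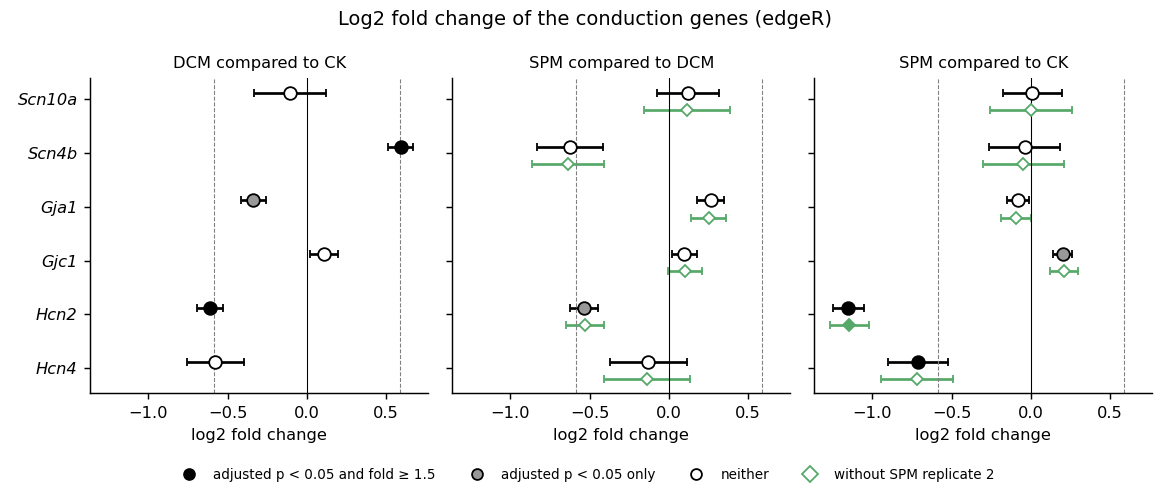
Log2 fold change of each conduction gene in the 3 comparisons, bars giving 1 standard error and dashed lines the fold of 1.5. Filled circles passed both limits, grey circles the adjusted p alone, and diamonds are the same fit without SPM replicate 2. Hcn2 in SPM compared to CK, at -1.15, lies farthest from 0 and is filled with and without that library.

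Among the sodium channel genes, Scn4b was higher in DCM than in CK. It measured 8.49, 7.75 and 7.92 FPKM in CK replicates 1 to 3, 11.2, 12.1 and 10.9 in DCM, and 4.56, 7.45 and 10.01 in SPM. The DCM libraries all lay above the CK and SPM libraries, and SPM had the widest spread, its highest library being 2.19 times its lowest against 1.104 in DCM and 1.095 in CK. The edgeR comparison of DCM with CK gave a log2 fold change of 0.59 (standard error 0.08, edgeR adjusted p = 0.000518), a fold of 1.51. That is just past the fold limit, and without CK replicate 2 (0.56, edgeR adjusted p = 0.00531) or DCM replicate 2 (0.54, edgeR adjusted p = 0.00364) it fell short of it. The call was also lost with the GC offset (0.58, edgeR adjusted p = 0.000158) and with limma on FPKM (0.50, limma adjusted p = 0.00619), both under the fold limit. The adjusted p ran from 1.07e-08 to 0.0697 over 14 alternative fits, the highest with all 9 libraries in a single fit.

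Scn4b had, in SPM compared to DCM, a log2 fold change of -0.63 (standard error 0.21, edgeR adjusted p = 0.0628), and without SPM replicate 2 it was -0.64 (edgeR adjusted p = 0.141). All SPM libraries lay below all DCM libraries, yet the adjusted p missed the limit. Without SPM replicate 3, the highest of the SPM libraries, the value was -0.92 with an edgeR adjusted p of 0.00265, and the gene was called. Without SPM replicate 1 it was -0.38 with an edgeR adjusted p of 0.0401, and with the GC offset -0.50 with 0.189, neither of them a call. Between SPM and CK the log2 fold change was -0.04 (standard error 0.23, edgeR adjusted p = 0.913) and -0.05 without SPM replicate 2 (edgeR adjusted p = 0.923). That difference turned to 0.21 without SPM replicate 1 and to 0.08 with the GC offset.

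The pore subunit gene Scn10a was at a low level, with 69 to 119 counts per library. Its FPKM were 0.4998, 0.435 and 0.395 in CK, 0.448, 0.337 and 0.372 in DCM, and 0.424, 0.422 and 0.404 in SPM, and the groups overlapped in each comparison. The log2 fold changes by edgeR were -0.11 (standard error 0.23, adjusted p = 0.828) in DCM compared to CK, 0.12 (0.19, 0.695) in SPM compared to DCM and 0.01 (0.19, 0.981) in SPM compared to CK, and without SPM replicate 2 the SPM values were 0.11 and 0.00129, with the GC offset 0.22 and 0.10. With these standard errors, no difference was detectable at this depth. Markers of neurons, the cells Scn10a is best known from, summed to 14.8 to 18.5 FPKM in the CK, 15.7 to 17.99 in the DCM and 15.8 to 17.7 in the SPM libraries, mostly from Uchl1.

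Of the hyperpolarization-activated channels, Hcn2 was lower in DCM than in CK and lower still in SPM. It measured 14.99, 13.5 and 12.99 FPKM in CK, 8.597, 8.34 and 8.57 in DCM, and 5.16, 5.81 and 6.51 in SPM. No library of any group overlapped with those of another, CK being highest and SPM lowest. For DCM compared to CK the log2 fold change was -0.61 (standard error 0.08, edgeR adjusted p = 0.000516), and the adjusted p stayed under 0.05 in 14 of 14 alternative fits, between 2.97e-08 and 0.00367. The fold of 1.53 is close to the limit, and without CK replicate 1, the highest library, the value was -0.55 (edgeR adjusted p = 0.000941) and short of a call.

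Hcn2 had, in SPM compared to CK, a log2 fold change of -1.15 (standard error 0.10, edgeR adjusted p = 0.000406), a fold of 2.22. It was called in 14 of 14 alternative fits, between -1.24 and -0.90, with -1.15 (edgeR adjusted p = 0.00333) without SPM replicate 2 and -0.90 (0.000370) with the GC offset. Between SPM and DCM its log2 fold change was -0.54 (standard error 0.09, edgeR adjusted p = 0.0109), which passed the adjusted p but not the fold limit. Here the adjusted p by edgeR was 0.0566 without SPM replicate 2 and 0.0537 without DCM replicate 2. With the GC offset the value was -0.27 and its edgeR adjusted p 0.104, and the part of the GC trend in the difference was not tested further. Without SPM replicate 3 it was -0.63 (edgeR adjusted p = 0.00176) and called.

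Hcn4, at 196 to 520 counts per library, was lower and more scattered. It measured 2.19, 2.50 and 2.46 FPKM in CK, 1.05, 1.86 and 1.59 in DCM, and 0.958, 1.38 and 1.76 in SPM. All DCM and all SPM libraries lay below the CK libraries, and DCM and SPM overlapped. Its log2 fold change of -0.58 in DCM compared to CK was close to that of Hcn2, but with a standard error of 0.18 the edgeR adjusted p was 0.0652, and the fold of 1.49 was just short of the limit. The gene was called without CK replicate 1 (-0.64, edgeR adjusted p = 0.0472), without DCM replicate 2 (-0.77, edgeR adjusted p = 0.0347) and with the GC offset (-0.60, edgeR adjusted p = 0.0474). Without DCM replicate 1, the lowest library, it was -0.35 (edgeR adjusted p = 0.161), and the adjusted p over the alternatives ran from 0.00148 to 0.175.

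Hcn4 was called lower in SPM compared to CK, at -0.71 (standard error 0.19, edgeR adjusted p = 0.0252). Without SPM replicate 2 the value was -0.72 with an edgeR adjusted p of 0.0793, and with the GC offset -0.55 with 0.0701. The adjusted p by edgeR was 0.0765 without CK replicate 2 and 0.0696 without CK replicate 3, and without SPM replicate 1 the value of -0.51 (0.0304) was under the fold limit. Of 14 alternative fits, 10 had an adjusted p under 0.05 and 9 called the gene. Against DCM, the SPM libraries gave a log2 fold change of -0.13 (standard error 0.24, edgeR adjusted p = 0.736) and -0.14 without SPM replicate 2, and its sign turned without DCM replicate 2 (0.06), without SPM replicate 1 (0.07) and with the GC offset (0.05).

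Hcn4 belongs to the nodal and atrial side of the heart, so atrial markers are given beside it. The 11 atrial myocyte markers summed to 1124 to 1564 FPKM over the CK, 659.5 to 1162 over the DCM and 1134 to 1862 over the SPM libraries. Within DCM and within SPM, replicate 1 was lowest both in this sum and in Hcn4. The CK libraries ran the other way, replicate 2 having the lowest sum (1124 FPKM) with the highest Hcn4 and replicate 1 the highest sum (1564) with the lowest Hcn4, and in DCM replicate 3 had a higher sum than replicate 2 (1162 and 1065) but less Hcn4. In DCM compared to CK, 4 of the markers were lower at an edgeR adjusted p under 0.05 (Myl4, Sln, Mybphl and Stard10) and Tbx5 was higher. Between SPM and CK, Stard10 was lower and Nppa and Tbx5 were higher, and no other of the 11 passed. Without SPM replicate 2 the log2 fold change was -0.49 for Stard10 (-0.47 with it), which passed (edgeR adjusted p = 0.0484), and 0.59 for Nppa (0.60 with it) and 0.22 for Tbx5, which did not. Stard10 did not pass with the GC offset (-0.31, edgeR adjusted p = 0.0609). Compared to DCM, SPM was higher in Nppa (0.74, edgeR adjusted p = 0.0292), with 0.73 (edgeR adjusted p = 0.0825) without SPM replicate 2, and in Fgf12. Nppa, Myl7 and Sln were the most abundant of the list. Nppa measured 696, 423 and 580 FPKM in CK, 348, 507 and 588 in DCM and 632, 813 and 960 in SPM. Sln measured 139, 104 and 142 FPKM in CK, 35.6, 65.9 and 74.6 in DCM and 56.4, 83.7 and 105 in SPM. Myl7, the atrial myosin light chain, measured 452, 365 and 473 FPKM in CK, 163, 321 and 334 in DCM and 296, 438 and 553 in SPM. The part of atrial RNA in the Hcn4 values was not tested, and in such bulk libraries fewer cells of a type cannot be told apart from less RNA per cell.

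**Figure D3:**
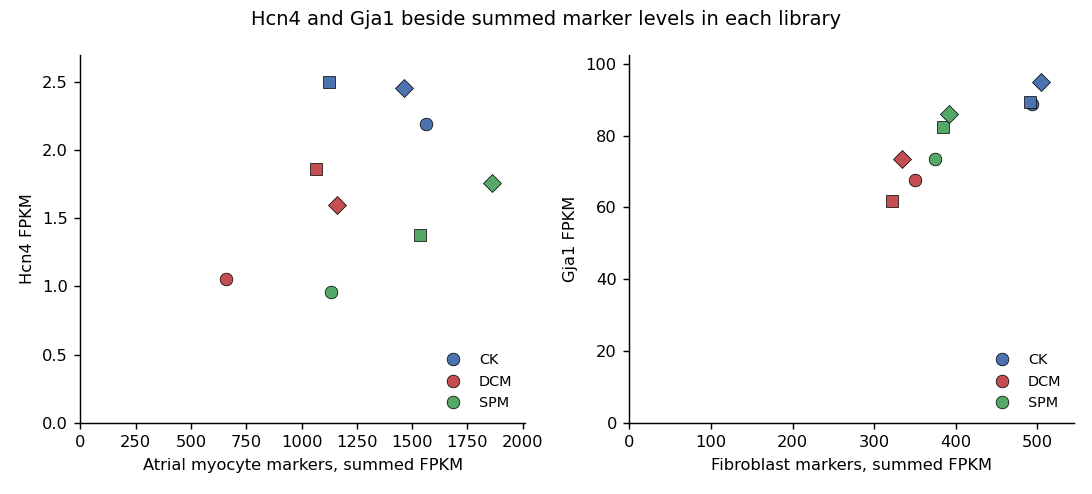
Left, Hcn4 FPKM against the summed FPKM of the atrial myocyte markers, and right, Gja1 FPKM against the summed FPKM of the fibroblast markers, with 1 point per library (circle, square and diamond for replicates 1, 2 and 3) and both axes from 0. The DCM and SPM circles are lowest in their groups in Hcn4 and in the atrial sum, whereas the CK circle is lowest in Hcn4 and highest in the sum. The CK libraries are highest in Gja1 and in the fibroblast sum.

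The ratio of Hcn2 to Hcn4 FPKM was 6.84, 5.39 and 5.28 in CK, 8.16, 4.48 and 5.37 in DCM, and 5.38, 4.21 and 3.71 in SPM. The groups overlapped in every comparison. The log2 ratio differed by 0.00398 in DCM compared to CK (exact permutation p = 1), by -0.41 in SPM compared to DCM (exact permutation p = 0.3) and by -0.40 in SPM compared to CK (exact permutation p = 0.2), in two-sided tests whose smallest possible p is 0.1 with 3 libraries per group. Benjamini-Hochberg adjusted over 9 tests of ratios, of which 6 are given here, the exact permutation p was 1, 0.386 and 0.3. Without SPM replicate 2 the log2 ratio differed by -0.38 in both SPM comparisons (exact permutation p = 0.6 against DCM and 0.4 against CK, where 0.2 is the smallest possible).

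Hcn3 was near the limit of detection, with 2 to 28 counts per library, and did not pass the adjusted p in the comparison that tested it. Of the 7 genes listed as HCN channels and partners, 4 were tested in DCM compared to CK and 2 of these were lower at an edgeR adjusted p under 0.05, Hcn2 and Lrmp. The median log2 fold change of the list, -0.59 against -0.00248 over all genes, lies midway between Hcn2 and Hcn4 themselves, and Lrmp and Mrvi1 were the other genes tested. Lrmp, which encodes a protein that modulates HCN4, measured 3.20, 2.30 and 2.09 FPKM in CK, 1.77, 0.974 and 0.975 in DCM and 1.78, 1.68 and 1.78 in SPM. It was called lower in DCM compared to CK (log2 fold change -0.93, standard error 0.26, edgeR adjusted p = 0.0366). Its relative Mrvi1 did not pass (-0.07, edgeR adjusted p = 0.713). Hcn2 alone passed of the 4 tested in SPM compared to DCM, and in SPM compared to CK Hcn2 and Hcn4 of 5, so no gene of the list outside the 6 passed in an SPM comparison.

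Of the gap junction genes, Gja1 was lower in DCM than in CK by a fold under the limit. It measured 88.9, 89.3 and 94.98 FPKM in CK, 67.7, 61.8 and 73.5 in DCM, and 73.5, 82.5 and 86.0 in SPM. In FPKM CK was highest, and DCM and SPM did not overlap, though DCM replicate 3 at 73.498 and SPM replicate 1 at 73.517 were next to each other. In counts scaled by the TMM factor, SPM overlapped with CK. The log2 fold change of DCM compared to CK was -0.34 (standard error 0.08, edgeR adjusted p = 0.0182). The edgeR adjusted p rose to 0.0501 without CK replicate 2, 0.0728 without CK replicate 3, 0.0589 without DCM replicate 1 and 0.0682 without DCM replicate 2, with values from -0.40 to -0.29 over the libraries left out.

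Gja1 had, in SPM compared to DCM, a log2 fold change of 0.26 (standard error 0.08, edgeR adjusted p = 0.0552) and of 0.25 without SPM replicate 2 (edgeR adjusted p = 0.203). With the GC offset that difference was 0.02 (edgeR adjusted p = 0.863). Over 14 alternative fits the adjusted p of that difference passed in 6, though none of them called the gene. With all libraries kept, Gja1 passed by DESeq2 (DESeq2 adjusted p = 0.0184) and with the replicate block (edgeR adjusted p = 0.0278). The same held for all 9 libraries in a single fit (edgeR adjusted p = 0.0431) and the 1 CPM filter (0.0471). Gja1 also passed when the fit lacked SPM replicate 1 (edgeR adjusted p = 0.0366) or DCM replicate 3 (0.0446). Its value in SPM compared to CK was -0.08 (standard error 0.07, edgeR adjusted p = 0.424) and -0.09 without SPM replicate 2 (edgeR adjusted p = 0.543). With the GC offset it was -0.29 (edgeR adjusted p = 0.0222), so for this GC-poor transcript both SPM values depended on whether the GC trend was taken out.

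Fibroblasts also carry connexin 43, and their 9 measured markers summed to 490.7 to 505.2 FPKM over the CK, 321.4 to 350.2 over the DCM and 375.2 to 391.9 over the SPM libraries. In DCM compared to CK, 6 of the 9 were lower at an edgeR adjusted p under 0.05, among them Col3a1 (95.3, 94.5 and 89.4 FPKM in CK and 33.8, 27.3 and 29.0 in DCM) and Col1a2. Dcn, the most abundant of the list, did not pass (-0.04, edgeR adjusted p = 0.819). Dcn (0.36, edgeR adjusted p = 0.0199) and Lum (0.42, edgeR adjusted p = 0.00956) were higher in SPM compared to DCM. In SPM compared to CK 5 markers, Col3a1 and Col1a2 among them, were lower with and without SPM replicate 2 and with the GC offset, and Dcn (0.31, edgeR adjusted p = 0.0203) and Pdgfra (0.24, edgeR adjusted p = 0.0135) were higher. These higher values hardly moved without SPM replicate 2, Dcn at 0.36 and Lum at 0.42 against DCM and Dcn at 0.32 and Pdgfra at 0.23 against CK, and none passed (edgeR adjusted p from 0.0543 to 0.0950). With the GC offset Dcn was at -0.04 and -0.07 and Lum at 0.17 against DCM, none of which passed. The part of fibroblast RNA in the Gja1 values was not tested.

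Gjc1 had no call in any comparison, at 9.66, 9.15 and 9.19 FPKM in CK, 9.13, 8.77 and 10.4 in DCM, and 10.2, 9.99 and 9.94 in SPM. DCM overlapped with both other groups, whereas SPM lay above CK. The log2 fold change was 0.11 (standard error 0.09, edgeR adjusted p = 0.50) in DCM compared to CK and 0.10 (0.08, 0.415) in SPM compared to DCM, where it was 0.10 without SPM replicate 2 and -0.02 with the GC offset. SPM compared to CK gave 0.20 (standard error 0.06, edgeR adjusted p = 0.0375), a fold of 1.15. Without SPM replicate 2 it was 0.21 (edgeR adjusted p = 0.159) and with the GC offset 0.10 (edgeR adjusted p = 0.281). The adjusted p by edgeR also missed the limit without CK replicate 2 (0.101), CK replicate 3 (0.0839), SPM replicate 1 (0.107) or SPM replicate 3 (0.0765).

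The ratio of Gjc1 to Gja1 FPKM, connexin 45 over connexin 43, was 0.109, 0.102 and 0.0967 in CK, 0.135, 0.142 and 0.142 in DCM, and 0.138, 0.121 and 0.116 in SPM. Every DCM and SPM library lay above every CK library. The log2 ratio was 0.45 higher in DCM than in CK and 0.28 higher in SPM than in CK (two-sided exact permutation p = 0.1 for each, the smallest possible, and 0.225 adjusted over 9). SPM and DCM overlapped, with a difference of -0.16 (exact permutation p = 0.2, adjusted 0.3). Leaving out SPM replicate 2 gave 0.30 compared to CK (exact permutation p = 0.2, then the smallest possible) and -0.14 compared to DCM (exact permutation p = 0.4).

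**Figure D4:**
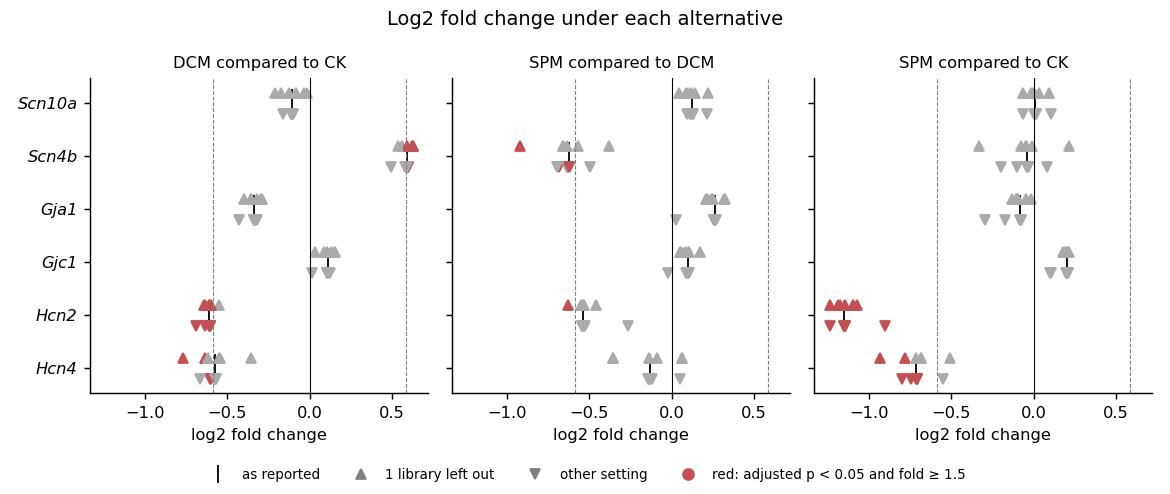
Log2 fold change of each conduction gene under every alternative, with a black bar for the reported value, upward triangles for 1 library left out, downward triangles for other settings, red where the gene was called, and dashed lines at the fold of 1.5. Hcn2 in SPM compared to CK is red throughout, whereas Scn4b and Hcn2 in DCM compared to CK sit beside the line, with values from 0.50 to 0.63 and from -0.69 to -0.55.

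Around these members, other genes of the same systems were counted from lists. Of 8 listed pore subunits in the matrix, 5 were tested, and in DCM compared to CK the smallest adjusted p among these was that of Scn4a (-0.29, edgeR adjusted p = 0.115). Between SPM and DCM, Scn7a was higher (0.55, edgeR adjusted p = 0.0107) and Scn4a lower (-0.52, edgeR adjusted p = 0.0461). The values of 0.55 and -0.51 without SPM replicate 2 were about as large, but neither passed (edgeR adjusted p = 0.0520 and 0.131). With the GC offset they were 0.25 and -0.38 and did not pass either (edgeR adjusted p = 0.0631 and 0.157). Scn7a encodes a sodium-sensing relative of the channels and Scn4a the skeletal muscle pore. Scn7a (0.73), Scn2a (1.46) and Scn3a (1.095) were called higher and Scn4a (-0.81) lower in SPM compared to CK, and with the GC offset Scn7a, at 0.45, was under the fold limit. The neuronal pores Scn2a and Scn3a stayed under 0.376 FPKM. Their values were 1.40 and 1.02 without SPM replicate 2 (edgeR adjusted p = 0.155 and 0.136) and 1.30 and 0.90 with the GC offset (edgeR adjusted p = 0.0562 and 0.0577), none of which passed.

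Of 11 genes tested from a list of sodium channel partners and regulators, Fgf13 and Lrrc10 were higher in DCM than in CK and none was lower. Fgf13 encodes a homologous factor that binds the C terminus of sodium channels, and it measured 20.3, 21.6 and 22.7 FPKM in CK, 25.9, 23.1 and 26.0 in DCM and 31.0, 29.6 and 26.1 in SPM. Its log2 fold change was 0.30 (edgeR adjusted p = 0.0269) in DCM and 0.52 (edgeR adjusted p = 0.00347) in SPM, each compared to CK, and the latter was 0.51 without SPM replicate 2 (edgeR adjusted p = 0.0212). Higher in SPM than in DCM were Camk2d, a calcium- and calmodulin-dependent kinase (0.38, edgeR adjusted p = 0.0142), and Fgf12. Camk2d was at 0.37 (edgeR adjusted p = 0.0738) without SPM replicate 2 and at 0.20 (edgeR adjusted p = 0.0977) with the GC offset. Fgf12 was called (log2 fold change 1.498, edgeR adjusted p = 0.0161), and it is on the atrial list too. It was at 1.54 (edgeR adjusted p = 0.0566) without SPM replicate 2 and at 1.31 (edgeR adjusted p = 0.0537) with the GC offset. Between SPM and CK, Fgf13, Ank3, Camk2d and Lrrc10 were higher and Fgf11 lower, of which Lrrc10 (0.70, edgeR adjusted p = 0.00149) and Fgf11 (-0.88, edgeR adjusted p = 0.0102) were called. Fgf11 at -0.77 (edgeR adjusted p = 0.0537), Ank3 at 0.31 (0.0850) and Camk2d at 0.25 (0.117) did not pass without SPM replicate 2, although Ank3 and Camk2d stayed close to their values with it, 0.32 and 0.25. Camk2d alone of the 5 did not pass with the GC offset (0.10, edgeR adjusted p = 0.301).

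Of 15 connexins in the matrix, 8 were tested in DCM compared to CK and Gja1 alone passed. None of 8 passed in SPM compared to DCM. Set against CK, the SPM libraries were higher in Gjc1, Gja3, Gja4 and Gjc3 of 7 tested, with a list median of 0.26 against 0.00215 over all genes. Their values were 0.20, 0.27, 0.26 and 2.01 in that order, and 0.21, 0.26, 0.28 and 1.85 without SPM replicate 2, where none of these 4 passed (edgeR adjusted p from 0.0817 to 0.167). Gjc1 alone of these 4 did not pass with the GC offset. The large values of Gjc3 rested on only 5 to 36 counts per library. Gja5, the connexin 40 gene of atria and Purkinje fibres, had 1 to 28 counts per library, and no difference in it was detectable at this depth.

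Of 16 genes of the intercalated disc, which anchors the gap junctions, 1 was higher and 1 lower in DCM compared to CK, Ctnna3 (0.33, edgeR adjusted p = 0.0250) and Xirp2 (-0.35, edgeR adjusted p = 0.0213). Cdh2, the N-cadherin gene (0.33, edgeR adjusted p = 0.0140), and Lmo7 (0.27, edgeR adjusted p = 0.0333) were higher in SPM than in DCM, and Jup, the plakoglobin gene, was lower. The first 2 were at 0.33 (edgeR adjusted p = 0.0830) and 0.28 (edgeR adjusted p = 0.148) without SPM replicate 2, and with the GC offset Lmo7 did not pass (0.26, edgeR adjusted p = 0.0559). Jup measured 171, 154 and 151 FPKM in CK, 160, 177 and 150 in DCM, and 105, 115 and 122 in SPM. Its log2 fold change was -0.50 (edgeR adjusted p = 0.0111) compared to DCM and -0.38 (edgeR adjusted p = 0.00661) compared to CK, and without SPM replicate 2 it was -0.51 (0.0566) and -0.38 (0.0378). Between SPM and CK, Cdh2, Dsg2, Ctnna3 and Lmo7 were higher and Jup and Ctnnb1 lower. Ctnnb1 was at -0.25 with and without SPM replicate 2 (edgeR adjusted p = 0.0277 and 0.111) and at -0.21 with the GC offset (edgeR adjusted p = 0.0569). No gene of the list was called in any comparison.

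Of 17 transcription factors of the conduction system tested, 5 were higher in DCM than in CK and none was lower, with a list median of 0.14. They were Irx3, Irx4, Irx5, Tbx5 and Gata6. Irx3, which patterns the fast-conducting ventricular network, measured 11.5, 10.3 and 9.21 FPKM in CK, 19.1, 18.6 and 20.1 in DCM, and 16.7, 16.6 and 16.9 in SPM. It was called in DCM (0.99, standard error 0.09, edgeR adjusted p = 3.36e-05) and in SPM (0.79, standard error 0.08, edgeR adjusted p = 0.000776), each compared to CK, and without SPM replicate 2 the latter was 0.80 (edgeR adjusted p = 0.00575). Tbx20 (0.41) and Hopx (0.30) were higher and Nkx2-5 (-0.28) lower in SPM than in DCM. They were at 0.42, 0.30 and -0.29 without SPM replicate 2 (edgeR adjusted p = 0.0681, 0.105 and 0.119) and at 0.18, 0.21 and 0.00821 with the GC offset (edgeR adjusted p = 0.193, 0.101 and 0.953). In SPM compared to CK, those 5 with Tbx20 and Etv1 were higher. Of these Irx4, Irx5 and Tbx5, at 0.36, 0.38 and 0.22, were at 0.34, 0.40 and 0.22 once SPM replicate 2 was left out, and then missed the adjusted p. Etv1 did not pass with the GC offset (0.20, edgeR adjusted p = 0.153), whereas Irx5 (0.63) and Gata6 (0.62) were called.

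**Figure D5:**
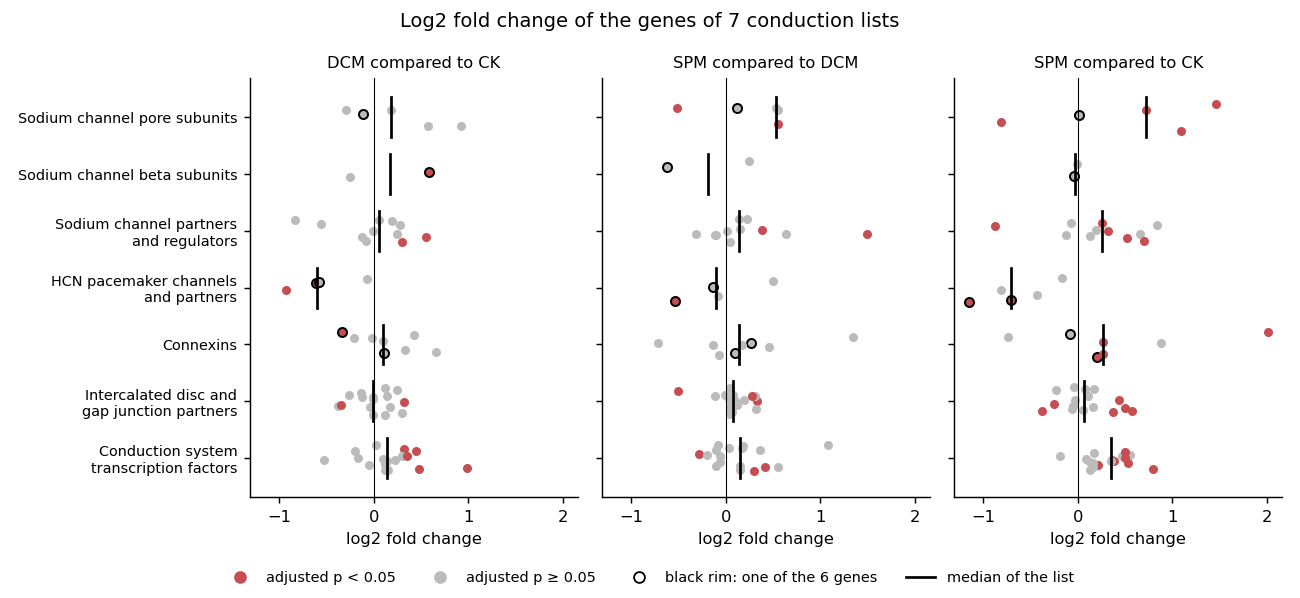
Log2 fold change of each tested gene of 7 lists in the 3 comparisons, red where the edgeR adjusted p was under 0.05, with a black rim for the 6 conduction genes and a black bar for the list median. In DCM compared to CK all 5 red transcription factors lie above 0, and the bar of the HCN list, at -0.59, lies midway between its 2 rimmed points, Hcn2 and Hcn4.

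The other marker lists are given by their sums and counts. Smooth muscle and pericyte markers summed to 384.8 to 446.7 FPKM over the CK, 346.2 to 467.96 over the DCM and 331.1 to 365.7 over the SPM libraries, with none of 10 past the adjusted p in DCM compared to CK, 2 lower in SPM compared to DCM and 1 higher and 3 lower in SPM compared to CK. Endothelial markers summed to 994.1 to 1191, 941.9 to 1019 and 881.0 to 936.1 FPKM in CK, DCM and SPM, with 2, 2 and 3 of 10 lower in the 3 comparisons in the same order. Schwann cell markers summed to 18.1 to 21.2 FPKM over all libraries, with 1 higher and 1 lower of 9 in SPM compared to CK and none in the other comparisons. Of the ventricular myocyte markers, 8 were measured, with Irx4 higher in DCM compared to CK, Myl3 lower in SPM compared to DCM, and Irx4 and Tnnt2 higher and Myl3, Myh6 and Tnni3 lower in SPM compared to CK. None of these SPM values passed without SPM replicate 2 (edgeR adjusted p from 0.0662 to 0.199), and Myl3 against DCM and Myh6 and Tnni3 against CK did not with the GC offset. Of the neuron markers, Uchl1 was higher in DCM compared to CK and none passed in the other comparisons. Over all lists, markers included, 22 genes passed the edgeR adjusted p in SPM compared to DCM. Of these, 1 (Cldn5) also passed without SPM replicate 2 and 5 with the GC offset. Of 53 such genes in SPM compared to CK, 26 also passed without that library and 37 with the GC offset. Without SPM replicate 2 the log2 fold changes of these genes moved by at most 0.0596 (Cacna1d) in SPM compared to DCM and 0.161 (Gjc3) in SPM compared to CK, and no sign turned, whereas the GC offset turned Dcn and Nkx2-5 in the former and Dcn and Rgs5 in the latter. Those that passed without SPM replicate 2 include Hcn2, Scn7a, Scn4a, Fgf13, Lrrc10 and Irx3.

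For each conduction gene the 3 most alike of 14908 other genes were taken by Pearson's r of log2 CPM over the 9 libraries, which are shared by all points, and SPM replicate 2 among them is close to a mixture. Nid1, Unc119b and Lrrc3b followed Hcn2 at an r of 0.990, 0.990 and 0.989. Those of Hcn4 were Bicd2, Atp2a2, the calcium pump of the sarcoplasmic reticulum, and Pde4a, at 0.975, 0.970 and 0.966. Scn4b was followed by Kcnk3, a potassium leak channel, at 0.972, Unc5a at 0.965 and Cdh22 at 0.961. For Gja1 they were Abca8a at 0.970, Fam114a1 at 0.962 and 1110002E22Rik at 0.960, for Gjc1 Gm40457 at 0.965, Zfp398 at 0.962 and Synj1 at 0.960, and for the sparsely counted Scn10a Dtwd2 at 0.952, Pik3cd at 0.951 and Nlrp3 at 0.926.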

How the data were processed

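Heart RNA of 9 libraries was sequenced after oligo(dT) enrichment and Ribo-Zero depletion. Counts, as whole numbers, were deposited by the authors for 22851 genes together with FPKM values, which equal the count divided by the gene's length and the library total. Reads were filtered with fastp 0.18.0, and the submitters' processing notes name Bowtie 0.12.2 and the builds mm8 and mm9 without a role. The sources used here do not give the counting tool or annotation, and coordinates are from GENCODE M21. Groups were taken from the sample titles. Symbols were matched for 22820 identifiers.

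Counts of the 6 libraries of each comparison were tested with edgeR 4.0.16 in R 4.3.3 (filterByExpr, TMM, quasi-likelihood test), with Benjamini-Hochberg adjustment over all genes and limits of 0.05 and, as in the study's methods, a fold change of 1.5. The standard error is the log2 fold change divided by the square root of F. These steps were tested on simulated data. FPKM ratios were compared by two-sided exact permutation tests in scipy 1.17.1. Alternatives were no low-count filter, RLE normalization, a filter of 1 CPM in 3 libraries, no fold limit, DESeq2 1.42.0, all 9 libraries in a single fit, a replicate block, limma 3.58.1 on log2(FPKM + 0.1), a GC offset (lowess, span 0.3) and each library left out in turn. Likeness used log2 of CPM plus 0.5.

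The 6 genes and all lists were chosen with earlier results of these data known. Named are the 6 genes in every library, Gja5 and Hcn3, list genes past the adjusted p, the most abundant genes of marker lists, and the 3 genes most like each of the 6. Beyond this rule, Mrvi1, Pdgfra, Lum and Col1a2 and the other marker genes given were chosen after their values were seen. A few genes and 1 ratio that the rule and the planned tests cover are not reported here, and the lists leave those genes out.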

Additional observations from a re-analysis of the deposited data

How the results depend on the processing

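The count of conduction genes called depended on the setting. In DCM compared to CK it was 2, and it fell to 1 (Hcn2) with limma on FPKM and with all 9 libraries in a single fit, and to 1 to 2 with a library left out. Over all genes the reported fit called 292 higher and 333 lower. Those numbers were 232 and 461 with limma, 320 and 360 in the single fit and 307 and 360 with the GC offset. With a library left out they ran from 215 to 293 higher and from 212 to 414 lower. A count of 2 did not always hold the same genes: Hcn2 and Scn4b gave way to Hcn2 and Hcn4 with the GC offset and without DCM replicate 2, and to Hcn4 and Scn4b without CK replicate 1. In SPM compared to DCM it was 0, and it became 1 with no low-count filter and with all 9 libraries in a single fit (Scn4b), 1 with no fold limit (Hcn2), and 0 to 2 with a library left out, 2 without SPM replicate 3. Over all genes 392 were called higher and 129 lower as reported, 567 and 160 with no low-count filter and 396 and 127 in the single fit. With no fold limit they numbered 1286 and 1124. With a library left out they ran from 42 to 576 higher and from 14 to 215 lower. In SPM compared to CK it was 2, with 1 under the GC offset (Hcn2) and 1 to 2 with a library left out, 1 without CK replicate 2, CK replicate 3, SPM replicate 1 or SPM replicate 2. Over all genes 741 were called higher and 601 lower as reported, and 592 and 470 with the GC offset. With a library left out they ran from 432 to 901 higher and from 339 to 688 lower.

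Residuals of libraries with the same replicate number correlated between -0.0746 and 0.205, and those with different numbers between -0.284 and 0.217. This does not settle if the numbers pair libraries, as the residuals of each group sum to 0 and SPM replicate 2 is close to a mixture. With the replicate block, 3 conduction genes were called in DCM compared to CK, Hcn4 being added at -0.61 (edgeR adjusted p = 0.0353), and 1 in SPM compared to DCM, Scn4b at -0.69 (edgeR adjusted p = 0.00993), while the count for SPM compared to CK stayed at 2. Over all genes the block called 262 higher and 306 lower of 14402, 476 and 134 of 14493, and 734 and 548 of 14574 in these comparisons.

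Some signs turned. The log2 ratio of Hcn2 to Hcn4 in DCM compared to CK was -0.0281 with 0.1 added to each FPKM and -0.24 to 0.19 with a library left out. Gjc1 in SPM compared to DCM was -0.0209 with the GC offset. Hcn4 in SPM compared to DCM was 0.0492 with the GC offset and -0.356 to 0.0651 with a library left out. In SPM compared to CK, Scn4b was 0.0784 with the GC offset and -0.329 to 0.211 with a library left out, and Scn10a was -0.0676 with limma and -0.0644 to 0.0913 with a library left out. With limma on FPKM, which hold no TMM factor, the median log2 fold change over all genes was itself below 0. It was -0.083 in SPM compared to CK and -0.088 in DCM compared to CK, against 0.00215 and -0.00248 by edgeR. The causes of the turned signs were not tested. Over all genes in SPM compared to DCM, those called by both limits numbered 392 higher and 129 lower, but 94 and 34 with the GC offset, 42 and 14 without SPM replicate 2, 49 and 24 without DCM replicate 2, 222 and 58 without DCM replicate 1, and 576 and 215 without SPM replicate 3. Depth limits what can be said of Scn10a, Hcn3, Gja5 and Gjc3, each under 120 counts per library.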

Other observations

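Genes listed as markers of conduction cells were measured beside the channels. Of 14 listed, 12 were tested in DCM compared to CK, and 3 were lower at an edgeR adjusted p under 0.05, with none higher. The others tested did not pass, among them Cntn2 (1.42, 2.27 and 1.48 FPKM in CK and 1.45, 1.63 and 1.45 in DCM). Cacna1d, a calcium channel of the sinoatrial node, measured 0.648, 0.816 and 0.734 FPKM in CK, 0.360, 0.356 and 0.388 in DCM, and 0.576, 0.507 and 0.572 in SPM. Its groups did not overlap, and it was called lower in DCM than in CK (log2 fold change -0.90, edgeR adjusted p = 0.00474) and higher in SPM than in DCM (0.59, edgeR adjusted p = 0.0286), the latter at 0.65 (edgeR adjusted p = 0.105) without SPM replicate 2 and 0.60 (edgeR adjusted p = 0.0537) with the GC offset. Cacna1g, a T-type calcium channel, measured 3.04, 3.57 and 3.33 FPKM in CK, 2.09, 1.85 and 2.04 in DCM, and 1.73, 1.81 and 2.07 in SPM. It was called lower in DCM (-0.64, edgeR adjusted p = 0.00104) and in SPM (-0.73, edgeR adjusted p = 0.00179) than in CK, and the latter was -0.70 (edgeR adjusted p = 0.0134) without SPM replicate 2 and, under the fold limit, -0.57 (edgeR adjusted p = 0.00694) with the GC offset.

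Smoc2, the most abundant of these markers, was lower in DCM than in CK (-0.40, edgeR adjusted p = 0.00760) and lower in SPM than in DCM (-0.26, edgeR adjusted p = 0.0337) and in CK (-0.67, edgeR adjusted p = 0.00111). Without SPM replicate 2 these were -0.27 (edgeR adjusted p = 0.143) and -0.68 (edgeR adjusted p = 0.00825), and with the GC offset the former was -0.28 (edgeR adjusted p = 0.0548). Kcne1, a potassium channel subunit, went the other way, at 2.30, 2.72 and 2.95 FPKM in CK, 3.48, 2.76 and 3.24 in DCM, and 6.12, 5.34 and 3.97 in SPM. It was called higher in SPM than in DCM (0.71, edgeR adjusted p = 0.0171) and in CK (1.05, edgeR adjusted p = 0.00357), with 0.69 (edgeR adjusted p = 0.0676) and 1.03 (edgeR adjusted p = 0.0174) without SPM replicate 2. Tbx3, a transcription factor that defines nodal cells, did not pass in any comparison, with log2 fold changes of -0.05, 0.19 and 0.13 in DCM compared to CK, SPM compared to DCM and SPM compared to CK. The SPM values were 0.16 and 0.11 without SPM replicate 2, and with the GC offset 0.31 (edgeR adjusted p = 0.0632) and 0.25, the last of which passed (edgeR adjusted p = 0.0448). The part of atrial or fibroblast RNA in these values was not tested, nor was the number of conduction cells.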
